A study of Mus musculus with 6 samples.

Results

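The subunits of oxidative phosphorylation were examined in the epididymal fat pad, a white adipose depot called eWAT here, of 3 cachectic and 3 control mice. The members were the protein-coding genes of the count table whose symbols name a subunit of complexes I to V (Nduf, Sdh, Uqcr, Cyc1, Cox4 to Cox8, Atp5 and the mt-Nd, mt-Co, mt-Cytb and mt-Atp genes), without Cox8b and Cox7a1. They came to 97 of 54532 genes, 84 encoded in the nucleus and 13 in the mitochondrial genome. All were male C57BL/6 mice of 6 to 10 weeks. Cachectic mice received cells of the Lewis lung carcinoma (LLC) line, which came from a mouse lung tumor, under the skin, and eWAT of both groups was taken on day 21. How control mice were treated is not given in the sources used here. Each sample is whole tissue of 1 labelled mouse, so fewer cells of a type and less RNA per cell cannot be told apart.

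Oxidative phosphorylation is carried out by enzyme complexes of the inner mitochondrial membrane. Complexes I and II take electrons from NADH and succinate, complex III passes them to cytochrome c, complex IV hands them to oxygen, and complex V, the ATP synthase, uses the resulting proton gradient to make ATP. Complex II is built from nuclear genes alone, while the other complexes join nuclear subunits to core subunits transcribed from mitochondrial DNA. White adipocytes use the pathway for lipid synthesis and turnover, and brown adipocytes use electron transport for heat.

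Most members did not pass the test for a difference between cachectic and control eWAT. Of the 92 members with enough counts to be tested, 7 rose and 4 fell in cachexia (12.0%), against 17.6% of the 16003 genes tested (edgeR's quasi-likelihood test, Benjamini-Hochberg adjusted p under 0.05). By direction, 9.0% of all tested genes rose and 8.63% fell. The 80 nuclear members had a median log2 fold change of 0.06, with 46 above and 34 below 0, and the median of all tested genes was -0.003. All 12 tested mitochondrial members were below 0, with a median of -0.69 and a range from -1.35 to -0.21, and 2 of them passed the test. Without control replicate 2 this median was -0.34, and 10 of the 12 were below 0. The median size of the log2 fold change, sign left out, was 0.22 over the nuclear members and 0.37 over all tested genes. The groups did not overlap in 24 of 92 members (26.1%), against 40.5% of all tested genes. These counts depended on single mice. Without control replicate 3 only Ndufa11 was called (5.02% of all tested genes), and without control replicate 2 none rose by edgeR and 2 members fell (7.92% of all tested genes). Without control replicate 1, 4 rose and 5 fell (13.4% of all tested genes). Without cachexia replicate 1, 2 rose and 3 fell (12.1% of all tested genes). Without cachexia replicate 2, 8 rose and 2 fell (12.2%), and without cachexia replicate 3, 7 rose and 4 fell (14.2%). Of the 11 calls, 10, 9 and 5 were lost without control replicates 3, 2 and 1, and 6, 4 and 3 without cachexia replicates 1, 2 and 3, while the direction of all 11 stayed the same. Not tested for low counts were mt-Atp8, Cox6a2, Cox7b2, Cox8c and a further gene listed as Atp5o with no counts.

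**Figure D1:**
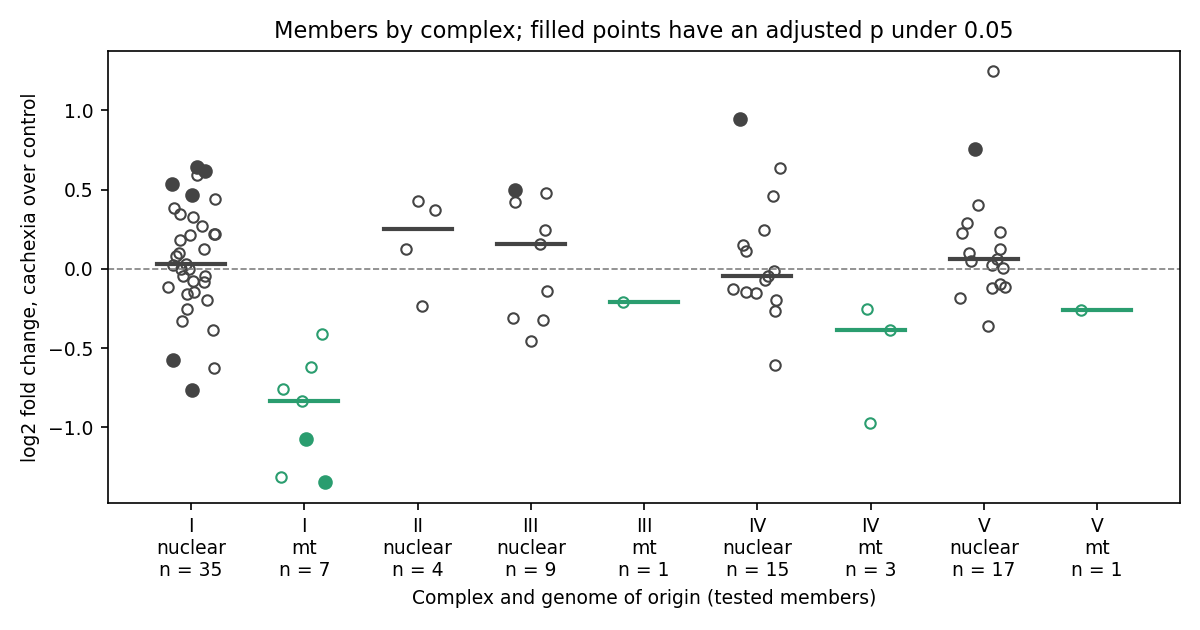
Log2 fold change, cachexia over control, of each tested member (points) by complex and genome of origin, with the median as a line and members with an adjusted p under 0.05 filled. All 12 mitochondrial (mt) points lie below 0, whereas nuclear points lie on both sides of it in each complex.

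The total count was between 14928766 and 18855546 per sample and was lower in every cachectic mouse than in every control mouse. Levels are given in CPM, the reads of a gene relative to the TMM-normalized library, and in CPM per kilobase where genes are compared. Pairs of control replicate 1 with the other controls differed more in their counts (chi-square per degree of freedom 58.6 and 45.7) than the other pair of controls (12.8). Pairs of cachectic mice differed more than any pair of controls (63.95, 63.6 and 82.55). Of 11 adipocyte markers 2 rose and 1 fell. The lipase gene Pnpla2 and the lipid droplet gene Cidec had log2 fold changes of 1.08 and 0.87 (edgeR adjusted p = 0.0197 and 0.0322), and leptin (Lep) had -3.14 (adjusted p = 0.0475). Plin1, which coats lipid droplets, was lower in every cachectic mouse without passing the test (log2 fold change -1.44, edgeR adjusted p = 0.0570). The list was abundant in both groups (summed level of 11 markers 26822 to 34427 CPM in controls and 29175 to 44525 CPM in cachexia). Of the other marker lists, 7 of 7 erythroid and 9 of 10 tested neutrophil markers rose. The summed erythroid level was 254 to 452 CPM in controls and 1337 to 2862 CPM in cachexia, and the summed neutrophil level was 32.4 to 49.7 CPM and 259 to 819 CPM. Of 8 endothelial markers 3 rose (1540 to 1697 CPM against 2158 to 3380 CPM), and of 7 fibroblast and progenitor markers 4 fell (5086 to 5842 CPM against 2111 to 3066 CPM). Ly6g, a neutrophil surface protein, had no counts in controls and was the single marker of these 4 lists to do so. Of the tested markers of other cells, 2 of 9 macrophage markers rose and 1 fell, 1 of 10 pericyte and smooth muscle markers rose and 1 fell, 1 of 4 brown adipocyte markers fell, and 0 of 5 mesothelial, 0 of 3 skeletal muscle and 0 of 1 epididymis and germ cell markers were called by edgeR. Of these last 3 lists, 1 skeletal muscle marker had an unadjusted p under 0.05, and DESeq2 and limma-voom called 0. Epididymis and germ cell markers were at 0.963 to 37.2 CPM in sum in controls and at 0.491 to 3.44 CPM in cachexia. The highest sum was that of control replicate 1, where the sperm protamine genes Prm2 and Prm1 were at 16.3 and 10.5 CPM and at most 0.229 and 0.459 CPM in the other controls. The part of these cells in the values of the members was not tested.

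The members of the mitochondrial genome are shown with their sequences because other genes hold the same letters. Each of mt-Nd1, mt-Nd2 and mt-Cytb encodes a core subunit in the membrane, the former pair in complex I and the latter in complex III. Their opening 60 bases in GRCm38 (plus strand; MT, 2751 to 2810, 3914 to 3973 and 14145 to 14204), with the start codon in capitals, are as follows.
mt-Nd1: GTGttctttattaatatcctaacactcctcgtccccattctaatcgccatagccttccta
mt-Nd2: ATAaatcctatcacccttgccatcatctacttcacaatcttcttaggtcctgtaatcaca
mt-Cytb: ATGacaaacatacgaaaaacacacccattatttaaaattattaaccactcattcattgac

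The mt-Nd1 and mt-Cytb transcripts had 0% of their 75-base windows in another transcript of GENCODE M21, and mt-Nd2 had 5.71%, shared with the pseudogene Gm13339 on chromosome 2. The copy was 96.7% identical over 510 aligned bases, and bases 667 to 726 of mt-Nd2 are shown with the differing bases in capitals.
mt-Nd2: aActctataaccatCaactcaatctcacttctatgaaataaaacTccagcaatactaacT
Gm13339: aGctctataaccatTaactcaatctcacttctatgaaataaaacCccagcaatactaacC
By contrast, 99.5% of the windows of mt-Atp6, 99.5% of mt-Co2, 99.9% of mt-Co3, 97.8% of mt-Nd3 and 98.7% of mt-Nd4l recurred elsewhere, chiefly in a run of pseudogenes on chromosome 1 (24611535 to 24616197, minus strand). The mt-Co2 copy Gm28661 was 100% identical over 681 bases, and the mt-Co1 copy Gm29216 differed at 1 of 483 aligned bases. The stretch of mt-Co1 from base 1063 to 1122 is shown with that base in capitals.
mt-Co1: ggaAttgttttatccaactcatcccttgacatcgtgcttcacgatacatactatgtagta
Gm29216: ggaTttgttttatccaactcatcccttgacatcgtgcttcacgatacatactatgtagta
The deposited counts of those 5 genes were low. They had 9.54 to 185 CPM per kilobase in controls on average, against 2857 to 11593 for mt-Nd1, mt-Nd2, mt-Nd4, mt-Nd5, mt-Nd6, mt-Cytb and mt-Co1, none of which had more than 61.5% of windows elsewhere. The part of the copies in these levels was not tested. How reads with several matches were counted is not given in the sources used here. mt-Atp8 (2.54 ± 0.970 CPM per kilobase in controls, SD, n = 3) and mt-Nd4l overlap mt-Atp6 and mt-Nd4 in part. mt-Nd5 (MT, 11742 to 13565) and mt-Nd6 (MT, 13552 to 14070) overlap only at their ends, on opposite strands. Counts of reads in these shared stretches are uncertain too.

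The complex I genes mt-Nd1 and mt-Nd2, which lie next to each other apart from tRNA genes, were the mitochondrial members that fell. mt-Nd1 (MT, 2751 to 3707) was at 4375, 6429 and 6045 CPM in the controls (replicates 1, 2 and 3) and at 2197, 2215 and 2214 CPM in the cachectic mice, in the same order of replicates as in all values that follow. Every cachectic mouse lay below every control mouse, and the cachectic mice were almost level with each other. The log2 fold change was -1.35 ± 0.24 (SE, edgeR, Benjamini-Hochberg adjusted p = 0.0102). mt-Nd2 (MT, 3914 to 4951) was at 2589, 4660.3 and 4355 CPM in controls and at 1987, 1683 and 1852 CPM in cachexia. The groups were again apart, with control replicate 1 nearest to the cachectic mice (log2 fold change -1.07 ± 0.27, edgeR adjusted p = 0.0335). Without control replicate 1 the log2 fold changes were -1.499 (edgeR adjusted p = 0.0105) and -1.29 (adjusted p = 0.0145). The call of mt-Nd2 was lost when any single other mouse was left out (adjusted p = 0.0708 to 0.126), and that of mt-Nd1 without control replicate 3 (adjusted p = 0.0567).

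The other mitochondrial subunits of complex I did not pass the edgeR test with all mice. mt-Nd5 was at 3076, 6679 and 5878 CPM in controls and at 3595, 2571 and 2611 CPM in cachexia, with control replicate 1 inside the range of the cachectic mice (log2 fold change -0.83 ± 0.33, edgeR adjusted p = 0.122). It passed with DESeq2 (adjusted p = 0.0237), but not with limma-voom (adjusted p = 0.125), and passed with edgeR without control replicate 1 (log2 fold change -1.10, adjusted p = 0.0396). With any single other mouse left out mt-Nd5 did not pass (edgeR adjusted p = 0.136 to 0.327), and without control replicate 2 its log2 fold change was -0.62. mt-Nd6, the subunit encoded on the other strand, was at 1576 ± 451 and 1024 ± 212 CPM (SD, n = 3 each, log2 fold change -0.62, edgeR adjusted p = 0.154). mt-Nd4 was at 4031 ± 1066 and 3033 ± 654 CPM (log2 fold change -0.41, edgeR adjusted p = 0.358). For mt-Nd3 and mt-Nd4l, both with copies, the log2 fold changes were -0.75 and -1.31, and every mouse had under 20 CPM. Without control replicate 1 mt-Nd4l passed the test (log2 fold change -1.78, edgeR adjusted p = 0.0111). It did not pass with any single other mouse left out (edgeR adjusted p = 0.230 to 0.473). With all mice limma-voom did not call mt-Nd4l (adjusted p = 0.462). With the counts of the chromosome 1 copies added to the genes they match, an alternative chosen after seeing the data, mt-Nd3 passed the test (log2 fold change -0.72, edgeR adjusted p = 0.0242).

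Outside complex I, 0 of 5 tested mitochondrial members passed the test by edgeR, DESeq2 or limma-voom, and 0 had an unadjusted p under 0.05. Over all 12 tested mitochondrial members edgeR called 2 (16.7%), a share near the 17.6% of all tested genes. mt-Cytb, the electron-carrying core of complex III, was between 5592 and 8971 CPM in controls and between 5320.1 and 7265 CPM in cachexia (log2 fold change -0.21 ± 0.28, edgeR adjusted p = 0.635). mt-Co1, the catalytic subunit of complex IV, was the member with the most reads per length, at 11593 ± 2969 CPM per kilobase in controls and 9743 ± 1532 in cachexia (SD, n = 3 each). Its groups overlapped widely (log2 fold change -0.25 ± 0.32, edgeR adjusted p = 0.625). Among genes with copies, mt-Co2 and mt-Co3 of complex IV and mt-Atp6 of complex V had log2 fold changes of -0.97, -0.39 and -0.26. mt-Co2 rested on control replicate 2 at 273 CPM, with the other controls at 36.8 and 69.1 CPM and cachectic mice at 47.5 to 79.9 CPM. Without that mouse the log2 fold changes of mt-Co2 and mt-Atp6 were 0.28 and 0.14, so that 10 of the 12 were below 0.

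**Figure D2:**
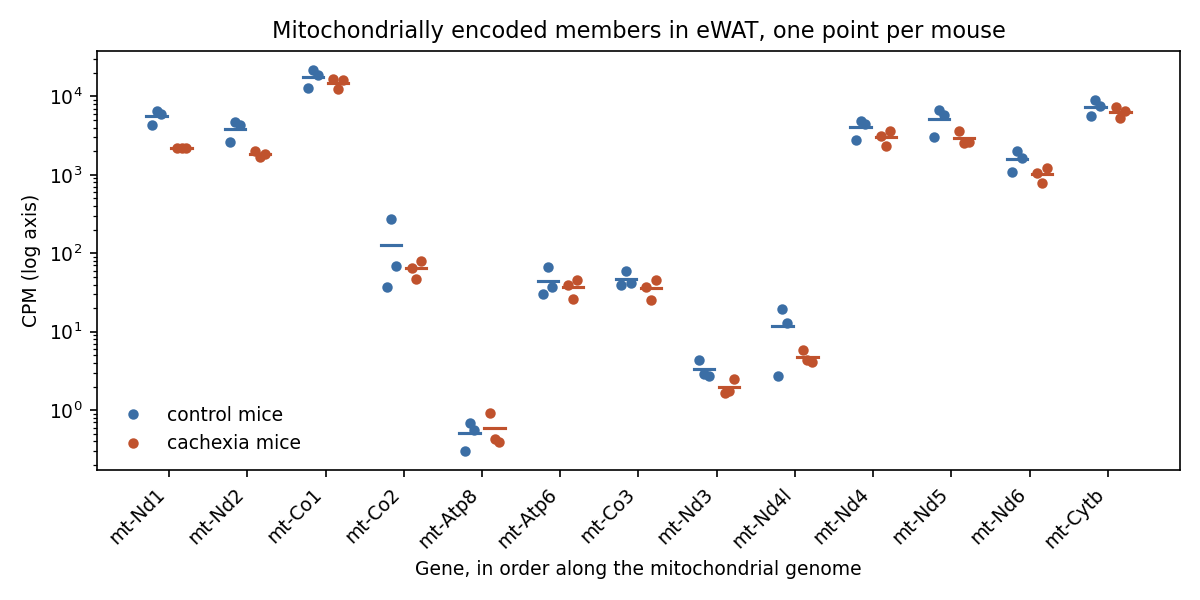
CPM (log axis) of the 13 mitochondrial members in order along the mitochondrial genome, 1 point per mouse (control and cachectic mice, 3 each) and group means as lines. In mt-Nd1 the cachectic mice lie at 2197 to 2215 CPM, below all controls, whereas in mt-Cytb and mt-Co1 the groups overlap, and mt-Atp8 and the 5 genes with over 90% of their windows elsewhere lie far below the rest.

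Mitochondrial members were also set against mt-Cytb of the same mouse, a ratio chosen after the values were seen. Among the tested mitochondrial members mt-Cytb had the log2 fold change of smallest size (-0.21), so this choice favored lower ratios for the others in cachexia. For mt-Nd1 it was 0.782, 0.717 and 0.797 in the controls but 0.302, 0.416 and 0.338 in the cachectic mice. The ratio of mt-Nd2 to mt-Cytb was 0.463 to 0.574 in controls and 0.273 to 0.316 in cachexia. In both, control replicate 1 stood with the other controls. The ratio of mt-Co1 to mt-Cytb was 2.30 to 2.51 in controls and 2.30 to 2.46 in cachexia, so the groups overlapped. For mt-Nd5 the ratio was 0.550 to 0.776 and 0.399 to 0.495, for mt-Nd6 0.196 to 0.222 and 0.146 to 0.186, and for mt-Nd4 0.504 to 0.587 and 0.436 to 0.552. These are relative changes and do not say which of the 2 transcripts changed.

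**Figure D3:**
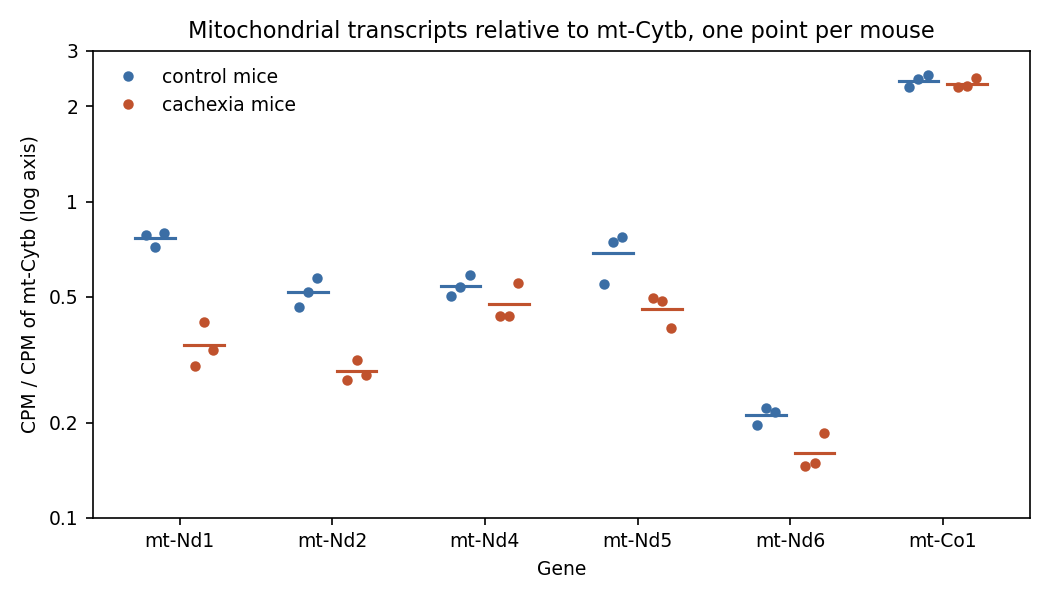
CPM of 6 mitochondrial members divided by CPM of mt-Cytb in the same mouse (log axis), 1 point per mouse and group means as lines. The ratio is lower in all cachectic mice for mt-Nd1 (0.302 to 0.416 against 0.717 to 0.797), mt-Nd2, mt-Nd5 and mt-Nd6, and overlaps for mt-Nd4 and mt-Co1.

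As a share of all counts, the 13 mitochondrial members held 3.46%, 5.27% and 4.60% in controls and 3.59%, 2.83% and 3.51% in cachexia. The mean was 4.44% ± 0.918 and 3.31% ± 0.412 (SD, n = 3 each), and control replicate 1 lay inside the range of the cachectic mice. Without control replicate 2 the difference was -0.717 percentage points in place of -1.13. The 84 nuclear members held 1.157% ± 0.0220 and 1.24% ± 0.126. Counts of mitochondrial over nuclear members were 2.93 to 4.64 in controls and 2.32 to 3.11 in cachexia, which overlapped.

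Complex I, the NADH dehydrogenase, had 35 of the 80 tested nuclear members. Of these, 4 rose and 2 fell (17.1%), a share near the 17.6% of all tested genes. Ndufa11, an accessory subunit of the membrane arm, had the smallest p among the members. It was at 43.4, 37.8 and 36.0 CPM in controls and at 21.5, 24.7 and 22.9 CPM in cachexia. The groups were well apart (log2 fold change -0.76 ± 0.13, edgeR adjusted p = 0.00992), and it was the single called member that passed the test in all 15 alternatives. Ndufa11 overlaps Vmac on the opposite strand, which was at 30.1 ± 0.359 and 30.3 ± 8.35 CPM (log2 fold change 0.01). The part of this overlap in the level of Ndufa11 was not tested. Ndufs8, which carries iron-sulfur clusters of the electron path, was at 66.1, 66.3 and 64.8 CPM in controls and at 49.5, 45.8 and 37.3 CPM in cachexia. All cachectic mice were lower, and the controls hardly varied (log2 fold change -0.57 ± 0.13, edgeR adjusted p = 0.0263).

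Accessory subunits were among the complex I members that rose. Ndufb9, of the membrane arm, was at 57.3, 58.2 and 60.1 CPM in controls and at 96.1, 87.1 and 86.3 CPM in cachexia (log2 fold change 0.62 ± 0.11, edgeR adjusted p = 0.0110). Every cachectic mouse was above every control mouse, and the spread within groups was small. Ndufb10, also of the membrane arm, was at 93.4, 97.3 and 94.3 CPM and at 154, 130.1 and 129 CPM (log2 fold change 0.53 ± 0.13, edgeR adjusted p = 0.0267). Ndufa6, an accessory subunit of the LYR family, was at 97.6, 86.4 and 102 CPM and at 128, 131 and 138 CPM (log2 fold change 0.47 ± 0.12, edgeR adjusted p = 0.0380). Their groups were likewise apart.

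Among the 29 other nuclear members of complex I, the NADH-binding subunits did not pass. Ndufv1, which holds the flavin, was at 121 ± 5.29 and 151 ± 38.5 CPM, and Ndufv2 at 137 ± 4.24 and 129.9 ± 5.83 CPM (SD, n = 3 each). Ndufs4, an accessory subunit whose loss causes Leigh-like disease in mice, was at 75.3, 71.1 and 81.2 CPM and at 49.0, 37.0 and 61.6 CPM and missed the threshold (log2 fold change -0.63, edgeR adjusted p = 0.0557). Ndufs3 and Ndufs7, core subunits beside Ndufs8, had log2 fold changes of 0.00 ± 0.12 and -0.00 ± 0.16. Nuclear subunits of complex I thus differed in direction, with log2 fold changes on both sides of 0 and a median of 0.03. Ndufa2 had the highest level per length among them, at 110.0 ± 15.3 CPM per kilobase in controls and 133 ± 27.9 in cachexia.

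None of the 4 complex II subunits passed the test by edgeR, DESeq2 or limma-voom, and 1 had an unadjusted p under 0.05. By edgeR 17.6% of all tested genes were called. Sdha, the flavin subunit, had the highest level of them per length, and was at 407, 515 and 527 CPM in controls and 785, 687 and 473 CPM in cachexia. Cachexia replicate 3 fell inside the range of the controls (log2 fold change 0.43 ± 0.23, edgeR adjusted p = 0.225). Sdhd, a membrane anchor, was higher in every cachectic mouse without passing the test (117 ± 9.05 and 152 ± 17.6 CPM, log2 fold change 0.37 ± 0.14, edgeR adjusted p = 0.106). Sdhb, the iron-sulfur subunit, and Sdhc, the other anchor, had log2 fold changes of 0.13 ± 0.17 and -0.23 ± 0.17.

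In complex III, 1 of 9 nuclear members rose and 0 fell (11.1% called, against 17.6% of all tested genes). Uqcrh, the hinge subunit next to cytochrome c1, was at 121, 112 and 112 CPM in controls and at 165, 157 and 164 CPM in cachexia. The groups were apart with little spread (log2 fold change 0.50 ± 0.12, edgeR adjusted p = 0.0268). It overlaps the little-counted Gm12854 on the opposite strand. The core subunit Uqcrc1 and the quinone-binding Uqcrq were lower in every cachectic mouse without passing the test (log2 fold change -0.46 ± 0.19 and -0.31 ± 0.13, edgeR adjusted p = 0.140 and 0.145). The electron carriers Cyc1 and Uqcrfs1 had log2 fold changes of -0.32 ± 0.23 and 0.42 ± 0.19. Uqcr10, a small subunit, had the highest level per length in the complex, 214 ± 27.7 and 239 ± 22.6 CPM per kilobase.

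In complex IV, 1 of 15 tested nuclear members rose and 0 fell (6.67% called, against 17.6% of all tested genes). Cox7a2l is linked to supercomplexes of complexes III and IV rather than being a standing subunit of complex IV. What it does in mice of this strain was not tested. It was at 113, 78.1 and 85.4 CPM in controls and at 198, 202 and 131 CPM in cachexia. Every cachectic mouse was higher, with cachexia replicate 3 nearest to the controls (log2 fold change 0.94 ± 0.22, edgeR adjusted p = 0.0240). Its paralog Cox7a2, the subunit itself, was at 97.1 ± 8.35 and 105 ± 24.6 CPM (log2 fold change 0.11 ± 0.19, edgeR adjusted p = 0.714). Cox8a had the highest level per length of all nuclear members, 622 ± 73.1 CPM per kilobase in controls and 562 ± 152 in cachexia.

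The paired isoforms of complex IV kept the same order in both groups. Cox4i1, the common form of the regulatory subunit, was at 342 ± 12.0 and 331 ± 20.7 CPM per kilobase, and the hypoxia-linked form Cox4i2 at 6.91 ± 1.63 and 4.53 ± 2.06. Cox6a1 was at 468 ± 26.9 and 409 ± 45.7 CPM per kilobase, and the muscle form Cox6a2 at 0.409 ± 0.181 and 0.300 ± 0.447. Cox6b1 was at 194 ± 15.2 and 230.2 ± 39.2 CPM per kilobase, and the testis form Cox6b2 at 1.65 ± 0.457 and 2.57 ± 0.802. Each common form was well above its partner in both groups. The testis forms Cox7b2 and Cox8c had no counts in any cachectic mouse and were highest in control replicate 1, the mouse with the protamine counts, at no more than 0.351 CPM. Ndufa4, now counted with complex IV, was lower in every cachectic mouse (145 ± 10.5 and 121 ± 21.6 CPM per kilobase, log2 fold change -0.26, edgeR adjusted p = 0.304), and the related Ndufa4l2 was at 19.2 ± 1.81 and 17.6 ± 4.84 CPM. Cox7a1 and Cox8b, the muscle and brown fat forms that the choice of members left out, had log2 fold changes of -1.37 (edgeR adjusted p = 0.124) and 2.12 (adjusted p = 0.143). Cox8b was at 2.66, 4.30 and 2.72 CPM in controls and at 5.37, 34.7 and 2.03 CPM in cachexia, so a single cachectic mouse stood out. Ucp1, the uncoupling protein of brown fat, had at most 0.0614 CPM in any mouse.

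In complex V, 1 of 17 tested nuclear members rose and 0 fell (5.88% called, against 17.6% of all tested genes). Atp5s, also called Dmac2l, is a coupling factor linked to the ATP synthase and not one of its subunits. It was at 8.33, 8.02 and 6.57 CPM in controls and at 13.4, 10.9 and 14.5 CPM in cachexia, and the groups were apart at this low level (log2 fold change 0.76 ± 0.20, edgeR adjusted p = 0.0376). None of the 16 other tested nuclear members passed the edgeR test, 3 had an unadjusted p under 0.05, and DESeq2 called 1 and limma-voom 0. The catalytic Atp5b had the highest level per length of the complex, 380.4 ± 50.2 and 335 ± 71.9 CPM per kilobase, and its partner Atp5a1 was at 280.2 ± 21.4 and 293 ± 80.4. The genes for the identical c subunit, Atp5g1, Atp5g2 and Atp5g3, had log2 fold changes of 0.23, 0.40 and -0.09 (edgeR adjusted p = 0.249, 0.0821 and 0.765). Atp5k, the e subunit, had the highest log2 fold change of the members, 1.25 ± 0.40, but its groups overlapped, at 26.2, 13.6 and 10.9 CPM in controls and 59.7, 24.8 and 36.3 CPM in cachexia (edgeR adjusted p = 0.0691).

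**Figure D4:**
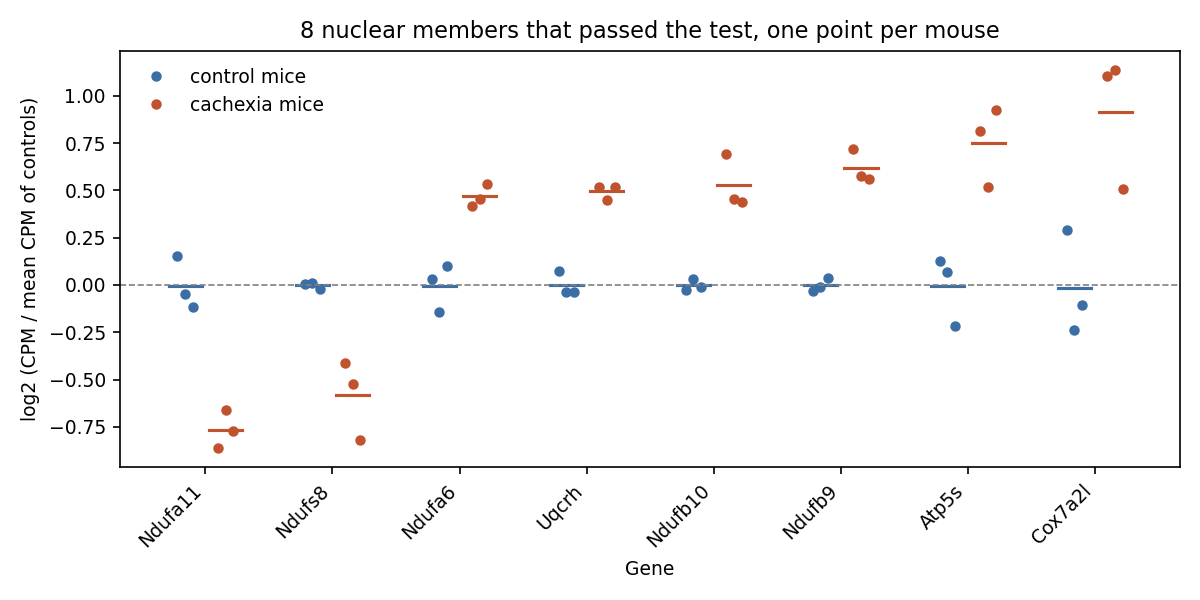
Log2 of CPM over the mean CPM of controls for 8 nuclear members with an adjusted p under 0.05, 1 point per mouse and group means as lines. The 2 genes at the left, Ndufa11 and Ndufs8, lie below 0 in all cachectic mice, and the 6 others lie above all controls.

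The cachectic mice differed among themselves in their nuclear members. The median log2 deviation from the mean of controls was 0.26, -0.06 and 0.03 in cachexia replicates 1, 2 and 3, against -0.03, -0.03 and 0.05 in the controls, while it was between -0.02 and 0.01 in each mouse over all tested genes. Cachexia replicate 1 was the highest cachectic mouse in 55 of 80 tested nuclear members, and replicate 2 was the lowest in 46. The median SD of log2 CPM was 0.13 among controls and 0.25 among cachectic mice for nuclear members, and 0.19 and 0.26 for all tested genes. Leaving out cachexia replicate 1 moved the nuclear median log2 fold change from 0.06 to -0.03, and the number of members that rose from 7 to 2. In that run 12.1% of all tested genes were called, against 17.6% with all mice. Leaving out cachexia replicate 2 moved the median to 0.16. Each complex showed the same order of cachexia replicate 1 above replicate 2.

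**Figure D5:**
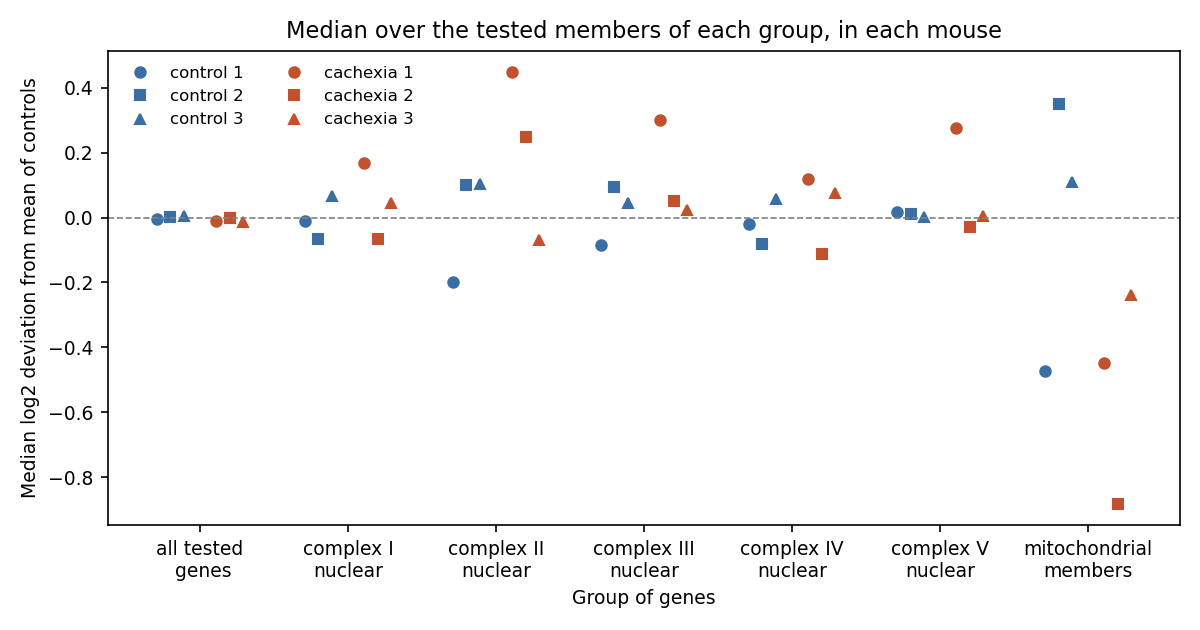
Median over tested members of the log2 deviation (log2 of CPM + 0.5, minus the mean of controls) in each mouse, by group of genes. Cachexia replicate 1 is the highest mouse in every nuclear complex, and over the mitochondrial members control replicate 1 lies level with the cachectic mice.

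Promoters were compared for motifs of factors known to drive nuclear subunit genes. RefSeq promoters (GRCm38.p6, 250 bases before to 50 after the start) were matched for 67 of the 84 nuclear members. The letters searched on both strands were GCGCATGCG for NRF1, CCGGAAGT for GABPA, TCAAGGTCA for ESRRA and AAGATGGCG for YY1. The NRF1 letters stood in 8 member promoters (11.9%) and in 1.95% of 27025 genes, and the YY1 letters in 7 (10.4%) and 1.64%. GABPA letters stood in 5 (7.5%) and 4.31%, and ESRRA letters in 2 (3.0%) and 0.47%. A match is a description of letters and not a measured site. Of the 7 called nuclear members with a promoter entry, Ndufa11, which fell, held the NRF1 letters, and Uqcrh, which rose, held the GABPA letters. Their promoters are shown with the match in capitals (chr17:56717512-56717811, plus strand, where the NRF1 letters match on both strands in overlap, and chr4:116075021-116075320, minus strand, where the match reads on the other strand).
Ndufa11: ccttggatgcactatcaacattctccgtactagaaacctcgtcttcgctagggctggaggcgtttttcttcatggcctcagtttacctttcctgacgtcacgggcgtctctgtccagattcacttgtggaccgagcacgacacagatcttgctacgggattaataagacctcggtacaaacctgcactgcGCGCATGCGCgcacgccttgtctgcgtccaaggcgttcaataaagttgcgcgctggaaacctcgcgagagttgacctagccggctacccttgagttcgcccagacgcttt
Uqcrh: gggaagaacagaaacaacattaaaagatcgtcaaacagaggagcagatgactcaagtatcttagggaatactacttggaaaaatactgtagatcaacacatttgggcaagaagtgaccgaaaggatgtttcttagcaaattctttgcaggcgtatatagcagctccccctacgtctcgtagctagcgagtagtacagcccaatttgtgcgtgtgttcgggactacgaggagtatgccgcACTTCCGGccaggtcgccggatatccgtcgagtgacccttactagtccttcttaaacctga
Of the genes of these factors, Nrf1 and Esrra did not pass the test, and values for those of GABPA and YY1 are not given here. Nrf1 was at 24.4, 23.4 and 24.3 CPM in controls and at 20.1, 20.9 and 26.4 CPM in cachexia (log2 fold change -0.10, edgeR adjusted p = 0.690), and Esrra had a log2 fold change of -0.05 (adjusted p = 0.918).

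Other genes of the pathway were read as lists, here and below, to be set beside the 17.6% of all tested genes that were called. The calls in these lists were not followed with single mice left out. Without control replicate 3 only 5.02% of all tested genes were called. Of 51 tested assembly factors, 4 rose and 2 fell. Uqcc3, which helps to build complex III, had the smallest p, at 22.3, 19.8 and 23.2 CPM in controls and 38.2, 37.5 and 35.6 CPM in cachexia (log2 fold change 0.77, edgeR adjusted p = 0.00814). Tmem186 and Cmc1, assembly factors of complexes I and IV, also rose (log2 fold change 0.76 and 0.62, edgeR adjusted p = 0.0375 and 0.0436), and Acad9 and Atpaf2, of complexes I and V, fell (log2 fold change -0.83 and -0.60, adjusted p = 0.0422 and 0.0431).

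Of 20 tested electron carriers and enzymes that feed them, 3 rose and 2 fell. Coq8a, a kinase-like protein needed for ubiquinone synthesis, was at 41.8, 34.2 and 35.4 CPM in controls and at 149.7, 181 and 86.0 CPM in cachexia (log2 fold change 1.90, edgeR adjusted p = 0.00472). Etfb, which carries electrons from fatty acid oxidation, and Coq5, a methyltransferase of ubiquinone synthesis, rose as well (log2 fold change 1.41 and 0.73, edgeR adjusted p = 0.00587 and 0.00765). Coq7, a hydroxylase of the same route, fell (log2 fold change -0.99, edgeR adjusted p = 0.0240). Cycs, the cytochrome c that runs between complexes III and IV, was at 98.7, 112 and 102 CPM and at 82.3, 74.99 and 70.8 CPM and fell with no overlap of the groups (log2 fold change -0.45, edgeR adjusted p = 0.0407).

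Of 31 tested genes that copy, transcribe or translate the mitochondrial genome, 3 rose and none fell by edgeR, DESeq2 or limma-voom, with 2 lower at an unadjusted p under 0.05. Hsd17b10, a subunit of mitochondrial RNase P that cuts tRNAs from the long transcripts, was at 87.7, 103 and 113 CPM in controls and at 203, 306 and 238 CPM in cachexia (log2 fold change 1.30, edgeR adjusted p = 0.00542). Polg, the mitochondrial DNA polymerase, and Tfb2m, a transcription factor, had log2 fold changes of 0.53 and 0.63 (edgeR adjusted p = 0.0202 and 0.0306). Tfam, which packs mitochondrial DNA and starts its transcription, did not pass (35.6, 35.0 and 35.1 CPM against 31.7, 32.4 and 25.6 CPM, log2 fold change -0.24, edgeR adjusted p = 0.257). Among 14 tested nuclear regulators, Nrip1, a corepressor of oxidative genes in fat, fell (log2 fold change -1.54, edgeR adjusted p = 0.00587), and the coactivator Ppargc1a did not pass (log2 fold change -0.55, adjusted p = 0.252). Of 6 tested carriers of nucleotides, phosphate and related ions, Vdac3, an outer membrane channel, fell (log2 fold change -0.51, edgeR adjusted p = 0.0204). Of 14 genes of the tricarboxylic acid cycle and 8 tested subunits and isoforms outside the rule, none passed the edgeR test, with median log2 fold changes of -0.23 and -0.24. In each of these lists 3 genes had an unadjusted p under 0.05, and of the tricarboxylic acid cycle DESeq2 called 1 gene higher and 1 lower and limma-voom 0. The median over the lists of assembly factors, electron carriers and mitochondrial genome expression was -0.02, 0.13 and 0.13, against -0.003 over all tested genes.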

How the data were processed

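Total RNA was extracted from eWAT, and libraries made from it were sequenced as 150 bp paired-end reads. The authors' methods name no step that selects mRNA or removes ribosomal RNA. The authors filtered the reads by quality, used Hisat2 for alignment and featureCounts 1.5.0-p3 for counting, and deposited the raw count of each gene. The submitters' processing notes name mm9, but 99.9% of the gene IDs are in GENCODE M21 (GRCm38), 98.3% of these with the same coordinates, and coordinates are those of the file. Strand and the treatment of multiple matches are not given in the sources used here. Deposited FPKM values, and a table with the authors' fold changes and p-values by DESeq2, were not used. Counts were filtered with filterByExpr, scaled by TMM and tested by quasi-likelihood in edgeR 4.0.16 (R 4.3.3) without covariates, and p-values were adjusted by Benjamini-Hochberg over the 16003 genes kept, with a threshold of 0.05. The standard error is the log2 fold change divided by the square root of F. The common biological coefficient of variation was 0.264. Scripts were tested on simulated counts. No 2 samples had near-identical counts. Samples were grouped by their labels. P-values measure the spread between these samples.

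Members, lists and promoter motifs were chosen with earlier results of these data known. Genes named are all mitochondrial members, nuclear members with an adjusted p-value under 0.05, the nuclear member of each complex highest per length, isoform families, up to 3 genes per list and direction by p-value, and Ppargc1a, Tfam, Nrf1, Esrra, Cycs, Cox7a1 and Cox8b. Of these, 1 nuclear member that passed the test is counted but not reported here. Other members and Ucp1 were named after their values were seen. Alternatives were RLE size factors, plain library totals, scaling without mitochondrial genes, no filter, at least 10 counts in every sample, DESeq2 1.42.0, limma-voom (limma 3.58.1), a replicate block and each sample left out. For the share of counts they were protein-coding counts as denominator and the copies added.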

Additional observations from a re-analysis of the deposited data

How the results depend on the processing

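The median log2 fold change of the mitochondrial members (-0.69) and the difference in their share of counts (-1.13 percentage points) stayed below 0 in every alternative run, and that of the nuclear members (0.06) changed sign without cachexia replicate 1. The lowest size of both mitochondrial values came without control replicate 2. Without any 1 mouse the mitochondrial median was between -0.75 and -0.34, the nuclear median between -0.03 and 0.16, and the share of counts in mitochondrial members, cachexia minus control, between -1.63 and -0.717 percentage points. The number of members that rose (7) was within 1.5 times under other scalings, filters and tools, but it was between 0 and 8 without 1 mouse. The number that fell (4) was then between 1 and 5. With control replicate 2 left out 0 rose and 2 fell, where 7.92% of all tested genes were called. With control replicate 3 left out 0 rose and 1 fell, where 5.02% of all tested genes were called. Among members that overlap no other gene with counts, an alternative added after seeing the data, 5 rose and 1 fell. This was 11.8% of those tested, against 17.6% of all tested genes. The labels do not say whether replicate numbers pair the mice. Correlations of deviations were -0.003, -0.011 and 0.008 for replicates 1, 2 and 3, and -0.0239 to 0.0226 between mice of different number. These values show no pairing but cannot exclude it. With the replicate block 3 rose and 3 fell (6.52% of tested members, against 11.8% of all tested genes). DESeq2 called 8 higher and 6 lower (15.2% of tested members, against 24.3% of all tested genes). Of 315 values of named members under alternatives, 262 kept their direction and side of the threshold, 47 lost the call, 4 gained it and 2 turned sign without a call, mt-Co2 (0.28) and mt-Atp6 (0.14), both without control replicate 2. Without 1 mouse mt-Co2 was between -1.41 and 0.28 and mt-Atp6 between -0.47 and 0.14. The cause was not tested. Scalings moved the median of all genes by at most 0.05. Low counts limit mt-Nd3, mt-Nd4l, mt-Atp8 and Atp5s, and 3 mice per group allow no two-sided exact permutation p under 0.1.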

Other observations

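The ribosomal RNA genes that precede mt-Nd1 on the mitochondrial genome are no members, and their values were looked up after those of mt-Nd1 were seen. mt-Rnr2, the large ribosomal RNA, was at 448 ± 87.8 CPM in controls and 189 ± 123 CPM in cachexia (SD, n = 3 each), lower in every cachectic mouse, without passing the test (log2 fold change -1.24 ± 0.42, edgeR adjusted p = 0.0794). mt-Rnr1, the small ribosomal RNA, was at 249 ± 20.6 and 210.4 ± 177 CPM, with overlapping groups (log2 fold change -0.24 ± 0.52, edgeR adjusted p = 0.779).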
